A study of Mus musculus with 4 samples.

Results

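The 10 forkhead genes described here, *Foxq1*, *Foxf2*, *Foxc1*, *Foxo1*, *Foxo3*, *Foxp1*, *Foxp4*, *Foxk1*, *Foxk2* and *Foxn3*, were taken by symbol, and all 10 were among the 12693 genes listed and passed the filter on low values. Forkhead proteins are transcription factors that bind DNA through a winged-helix domain of about the same fold in every member, one helix of which reads the DNA. The letter after Fox names the subfamily. In brain endothelial cells (ECs), the family includes FOXQ1 itself, FOXF2 and FOXC1, which are known for their parts in vascular and barrier development, and the FOXO proteins, which Akt keeps out of the nucleus when insulin and growth factors signal. FOXP and FOXK proteins and FOXN3 are mostly known as repressors.

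RNA-seq was performed on 2 wild-type samples and 2 samples of FOXQ1fl/fl;Tie2-Cre mice (*Foxq1* cKO), all C57BL/6 at E18. The labels give the tissue as brain, and the methods describe cortical cells sorted for CD31. Controls were littermates without Cre, and whether they carried floxed alleles was not given in the sources used here. Tie2-Cre recombines in ECs and, as general background, also in blood-forming cells. The number of embryos behind a sample was not given either, so every p-value below measures only the spread between these 4 samples, which may be technical.

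To show the sequence that reads DNA, the 27 bases encoding the core of the recognition helix were read from GRCm38 for *Foxq1* and for 4 relatives. They are written 5′ to 3′ on the coding strand, and capitals mark bases that differ from *Foxq1*.
Foxq1: aactccgtgcgccacaacctctcgctc
Foxf2: aactccgtgcgccacaacctctcgctc
Foxc1: aacAGcAtAcgGcacaacctctcgctc
Foxo3: aactccAtCcgGcacaacctGtcCctG
Foxk1: aactcTAtCcgAcacaacctctcTctT
The *Foxq1* stretch lies in its only exon, on the plus strand of chr13:31559397-31559423, and the *Foxf2* stretch lies in exon 1 on the same strand, at chr13:31626515-31626541. These neighbours did not differ at any of the 27 bases, *Foxc1* (exon 1, plus strand, chr13:31807577-31807603) differed at 5, and *Foxo3* (exon 3, minus strand, chr10:42197875-42197901) and *Foxk1* (exon 5, plus strand, chr5:142451439-142451465) at 6. Of members not printed, *Foxp4* differed at 6, *Foxk2* at 7, *Foxo1* and *Foxn3* at 8, and *Foxp1* at 10. Over whole transcripts, the longest identical run between any of the 45 pairs of members was 38 bases, between *Foxo1* and *Foxo3*, and the longest that *Foxq1* shared with another member was 32 bases. How reads that match more than one gene were counted was not given in the sources used here.

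The samples held between 15827166 and 21466436 reads on listed genes. Wild-type 1 stood apart: its log2 values correlated with those of the other samples at r of 0.842 to 0.859, against 0.878 to 0.904 among the other 3, so results are given without it where that matters. All 12 endothelial markers were listed, with a summed level of 339287 and 307752 normalized counts in wild-type samples and 274742 and 302127 in *Foxq1* cKO samples, and 1 of them, *Flt1*, was lower at an unadjusted p under 0.05 (log2 fold change −0.48, adjusted p = 0.857), or 8.33% beside 3.05% of all genes. Of the 12, 10 had a log2 fold change below 0 and 7 were lower with no overlap between the groups. Among all 12472 genes tested, 6149 were below 0 and 2249 were lower with no overlap. Of 12 mural markers 9 were listed, at a summed 153696 to 155649 against 146364 to 160912, while *Acta2*, *Tagln* and *Myh11* were not. Summed neuronal, microglial and macrophage, progenitor and glial, fibroblast and erythroid markers reached at most 28162 in any sample. Among these 5 lists, summed microglial and macrophage markers were lower in both *Foxq1* cKO samples (7851 and 9245) than in both wild-type samples (10536 and 13226). So were summed progenitor and glial markers (26106 and 24782, against 28162 and 26793). *Csf1r* (log2 fold change −0.83) of 12 and *Gfap* (−1.19) of 9 were lower at an unadjusted p under 0.05 (adjusted p = 0.857 in limma for both). These are 8.33% and 11.1%, beside 3.05% of all genes. Other markers went the other way, with 5 of 12 and 3 of 9 above 0. Without overlap between the groups, 2 microglial and macrophage markers were higher and 3 lower, and 1 progenitor and glial marker was higher and 4 lower. The 8 cycling-cell markers summed to 5775 and 5679 in wild-type samples and 9981 and 9814 in *Foxq1* cKO samples. In bulk RNA, fewer cells of a type and less RNA per cell cannot be told apart.

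The deletion was seen in the targeted gene. *Foxq1* (ENSMUSG00000038415) had 353 normalized counts in wild-type 1 and 297 in wild-type 2. In *Foxq1* cKO samples 1 and 2 it had 5.44 and 32.6. Both *Foxq1* cKO samples lay far below both wild-type samples, and they differed 5.98-fold from each other. In reads, these values were 419 and 298 against 5 and 32, so some *Foxq1* reads remained in each. The means were 325 ± 39.6 and 19.0 ± 19.2 (SD, n = 2 each), so *Foxq1* cKO samples kept on average 5.84% of the wild-type level. On the log2 scale the difference was −4.47 (SE 1.04, 95% interval −7.01 to −1.92), past an unadjusted p of 0.05 in limma and ranked 59 by p among all genes tested. It was not past Benjamini-Hochberg adjustment over all genes in limma (adjusted p = 0.857), while DESeq2 on the recovered reads gave −4.09 with an adjusted p of 0.00925 and edgeR gave −4.08 with an adjusted p of 0.94. Without wild-type 1, the change was −4.34 and still passed unadjusted. A test of *Foxq1* that borrowed no spread from other genes did not pass. In the annotation, A530084C06Rik on the opposite strand covers 66.1% of the exonic bases of *Foxq1*. It was not listed. Such overlaps covered at most 7.78% of any other member, and whether counting used the strand was not given in the sources used here. Which part of the gene the floxed interval spans was not mapped here.

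*Foxq1* was the only one of the 10 members past an unadjusted p of 0.05 in limma, where 5.22% of all 12472 genes tested were past it (651 genes, 271 higher and 380 lower, or 2.17% and 3.05%). No gene tested passed adjustment in limma or edgeR, with 651 and 614 genes (5.22% and 4.92%) at an unadjusted p under 0.05. In DESeq2, 804 genes (6.45%) passed unadjusted and 59 (0.473%) adjusted, and *Foxq1* was the only member among either. The other 9 members did not pass even unadjusted in any of the 16 fits, which are the one reported, 11 with other settings and 4 with 1 sample left out. The groups did not overlap for 3 of 10 members, *Foxq1* and *Foxo3* lower and *Foxf2* higher, where 36.0% of all genes tested did not overlap (2239 genes higher and 2249 lower). The median log2 fold change of the members was 0.04, and that of all genes was 0.01. With 2 samples against 2, an exact permutation test of a single gene cannot go below p = 0.333.

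**Figure D1:**
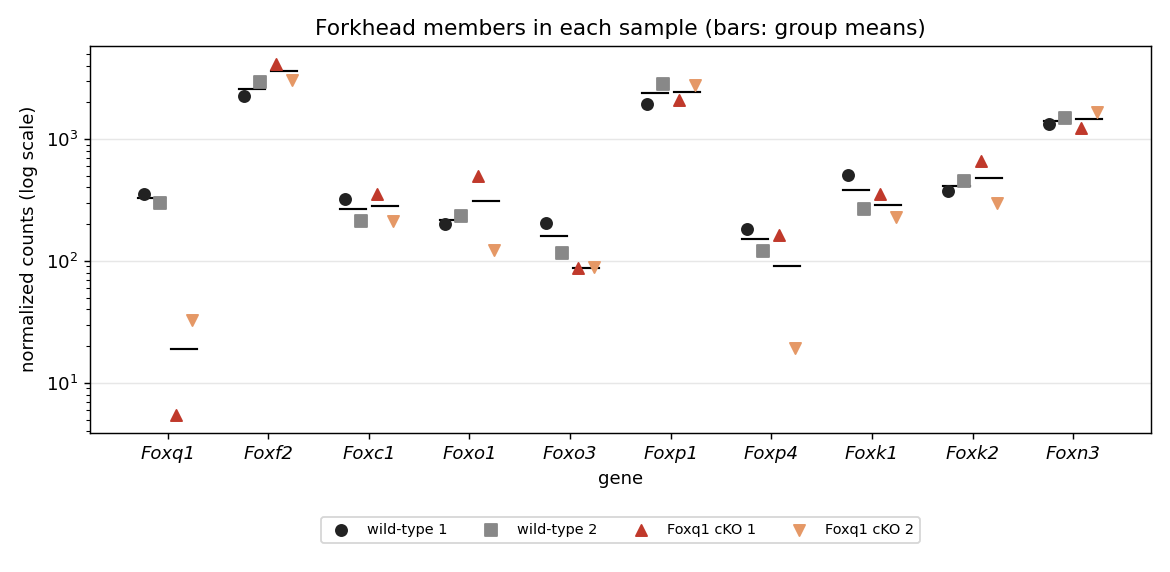
Normalized counts (log axis) of the 10 forkhead members in each of the 2 wild-type and 2 *Foxq1* cKO samples, with a bar at each group mean. *Foxq1* cKO samples sit far below wild-type samples for *Foxq1* (5.44 and 32.6 against 353 and 297), and the samples of *Foxo1* and *Foxp4* lie widest apart within the *Foxq1* cKO group among the other members.

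*Foxf2* and *Foxc1* follow *Foxq1* on chromosome 13 and belong with it to a conserved cluster of forkhead genes. *Foxf2*, a factor of brain ECs and pericytes, had 2254 and 2925 normalized counts in wild-type samples and 4158 and 3073 in *Foxq1* cKO samples. Both *Foxq1* cKO samples were above both wild-type samples, although wild-type 2 and *Foxq1* cKO 2 lay close together. The means were 2589.5 ± 474 and 3615 ± 767 (SD, n = 2 each), a log2 fold change of 0.48 with an SE of 0.242, and the 95% interval ran from −0.11 to 1.07 (adjusted p = 0.857). Without wild-type 1 it was 0.29, and across the samples left out in turn it ran from 0.26 to 0.70.

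*Foxc1*, which is known for its part in vascular and meningeal development, had 322 and 211 normalized counts in wild-type samples. The *Foxq1* cKO samples had 353 and 213. Each group held 1 higher and 1 lower sample at nearly the same levels, and the log2 fold change was 0.07 (SE 0.573, 95% interval −1.33 to 1.47, adjusted p = 0.989). Summed mural markers, which mark cells that also express *Foxf2* and *Foxc1*, overlapped between the groups (above).

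The FoxO members went apart and were poorly resolved. *Foxo1*, a brake on endothelial growth and metabolism, had 201 and 235 normalized counts in wild-type samples but 494 and 122 in *Foxq1* cKO samples. The *Foxq1* cKO samples lay on either side of the wild-type samples and differed 4.05-fold. Its log2 fold change of 0.18 (SE 0.79, 95% interval −1.75 to 2.11, adjusted p = 0.979) ran from −0.83 to 1.18 as samples were left out.

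*Foxo3*, a FoxO factor known for quiescence and stress resistance, had 203 and 115 normalized counts in wild-type samples and 87.1 and 88.5 in *Foxq1* cKO samples. Both *Foxq1* cKO values were below both wild-type values, and the spread lay in the wild-type group. The means were 159 ± 62.5 and 87.8 ± 0.998 (SD, n = 2 each). The log2 fold change was −0.79 (SE 0.723, 95% interval −2.56 to 0.97, adjusted p = 0.887), and it was −0.38 without wild-type 1.

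*Foxp1*, a repressor expressed in endothelium among many tissues, was at 1924 and 2839 normalized counts in wild-type samples and 2093 and 2753 in *Foxq1* cKO samples. Both *Foxq1* cKO samples fell between the wild-type samples. The log2 fold change was 0.04 (SE 0.276, adjusted p = 0.987), with a 95% interval of −0.63 to 0.71.

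*Foxp4*, the related repressor, had 182 and 121 normalized counts in wild-type samples and 162 and 19.3 in *Foxq1* cKO samples. *Foxq1* cKO 1 lay within the wild-type range and *Foxq1* cKO 2 far below it, 8.39-fold under the other sample of its group. The log2 fold change of −1.37 (SE 1.14, 95% interval −4.16 to 1.41, adjusted p = 0.876) rested on *Foxq1* cKO 2: with samples left out in turn it ran from −2.88 to 0.13. DESeq2, which works from means of counts, gave −0.74.

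*Foxk1* and *Foxk2* encode repressors that bind forkhead sites in genes of metabolism and autophagy. *Foxk1* had 506 and 264 normalized counts in wild-type samples and 351 and 228 in *Foxq1* cKO samples. The groups overlapped, and the wild-type samples alone differed 1.92-fold, the widest wild-type gap among the members. The log2 fold change was −0.37 (SE 0.566, 95% interval −1.75 to 1.01, adjusted p = 0.924).

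*Foxk2* had 377 and 449 normalized counts in wild-type samples and 659.7 and 299 in *Foxq1* cKO samples. As for *Foxo1*, *Foxq1* cKO 1 was above and *Foxq1* cKO 2 below the wild-type pair. The log2 fold change was 0.11 (SE 0.527, 95% interval −1.17 to 1.40, adjusted p = 0.981).

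*Foxn3*, a repressor linked to checkpoint control and to glucose metabolism, had 1319 and 1472 normalized counts in wild-type samples and 1240 and 1660.2 in *Foxq1* cKO samples. The *Foxq1* cKO samples enclosed the wild-type pair. Its log2 fold change of 0.04 had an SE of 0.269 and a 95% interval of −0.61 to 0.70 (adjusted p = 0.986). *Foxf2*, *Foxp1* and *Foxn3*, the members with the most reads, had the narrowest intervals.

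**Figure D2:**
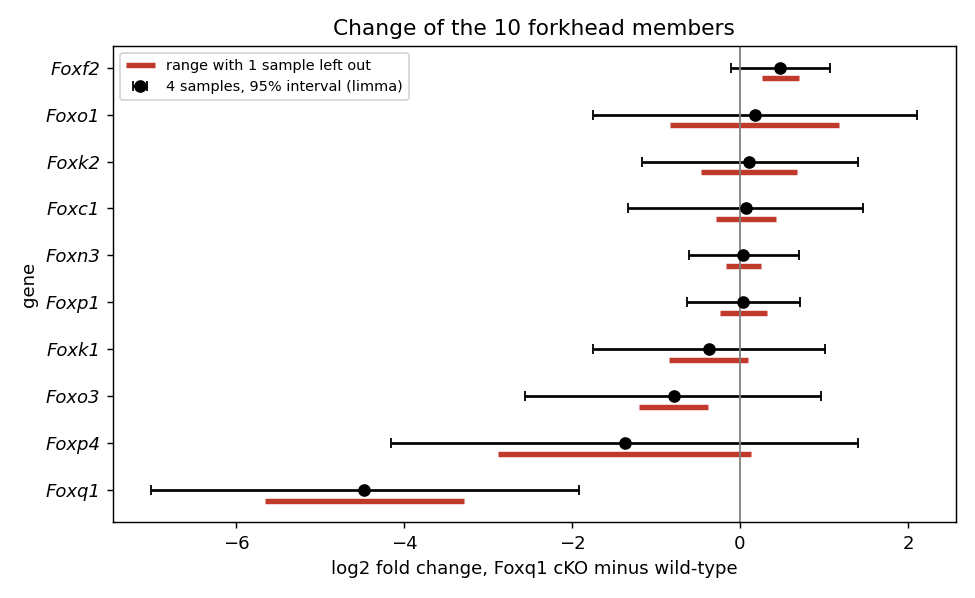
Log2 fold change (*Foxq1* cKO minus wild-type) of each member with its 95% interval from limma (black), and the range with 1 sample left out in turn (red). The interval of *Foxq1* (−7.01 to −1.92) alone lies off 0, and the red range crosses 0 for 7 of the 10 members. It cannot cross 0 for a gene whose groups do not overlap.

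Direction was not settled for most members. With 1 sample left out, the log2 fold change took the other sign for 7 of the 10, all but *Foxq1*, *Foxf2* and *Foxo3*. The groups of *Foxq1*, *Foxf2* and *Foxo3* did not overlap (above), and without overlap the sign cannot change when 1 sample is left out. Their kept sign is thus no further evidence. How often the sign changed over all genes was not counted. Between the wild-type samples, the gap was 1.12-fold to 1.92-fold over the members. *Foxq1* cKO samples differed by more than 2-fold for 4 members, *Foxq1*, *Foxo1*, *Foxp4* and *Foxk2*, and for the other 6 by as little as 1.02-fold.

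To compare genes with each other, normalized counts were divided by the kilobases of annotated exon. On this scale *Foxf2* stood first in wild-type samples with 954 and 1238 normalized counts per kb, at the 93.6 percentile of listed genes. *Foxp1* came next with 139.9 and 206, then *Foxn3* with 115 and 128, and each of these 3 was above the next gene with no overlap between the wild-type samples. From there the order was *Foxk2* (mean 78.6), *Foxq1* (67.1), *Foxk1* (50.8), *Foxc1* (45.6), *Foxp4* (30.7), *Foxo1* (25.1) and *Foxo3* (21.0 per kb), and every neighbour in this order overlapped with the next. *Foxq1* was thus a mid-level member, at the 38.4 percentile per kb, and in *Foxq1* cKO samples it had 1.12 and 6.72 per kb. Exon length here is the union over annotated transcripts, 13751 bp for *Foxp1* and 2363 bp for *Foxf2*, so a gene with many long transcripts is placed low.

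**Figure D3:**
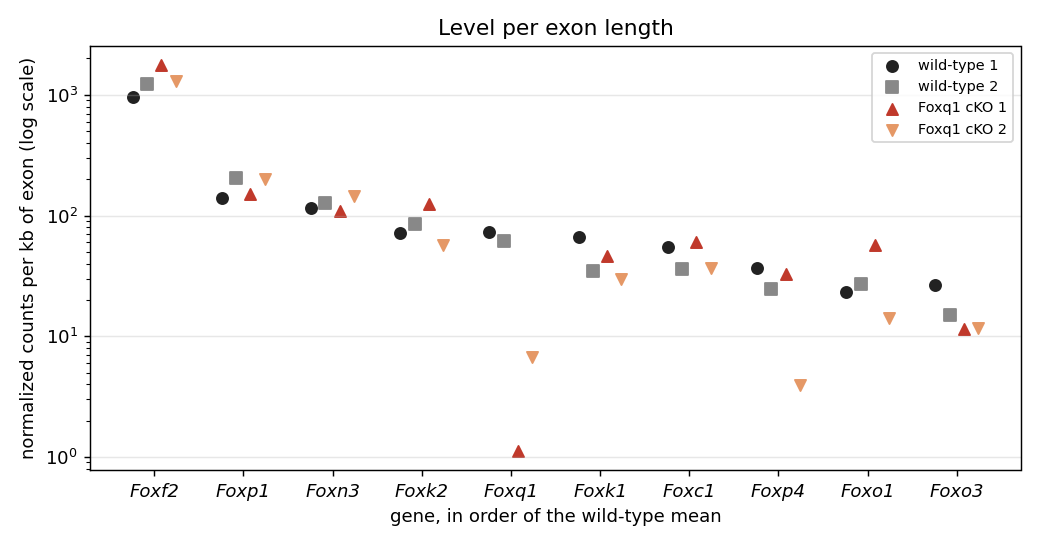
Normalized counts per kb of annotated exon (log axis) for the 10 members, ordered by the wild-type mean, with 1 symbol per sample. *Foxf2* lies above all other members in every sample, and *Foxq1* drops from 72.9 and 61.3 per kb in wild-type to 1.12 and 6.72 in *Foxq1* cKO samples.

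Of the 34 other forkhead genes of the mouse, 13 were listed and 21 were not, among them *Foxc2* and *Foxo6*. Every listed gene had at least 1 read in each sample, so the levels of those 21 were not analysed here. None of the 13 passed an unadjusted p of 0.05 in limma (background 5.22%), 9 had a log2 fold change above 0, and their median was 0.65 against 0.01 for all genes. The groups did not overlap for 5 of them, where 36.0% of all genes did not.

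*Foxf1*, the paralogue of *Foxf2* and a factor of lung vessels, had 233 and 336 normalized counts in wild-type samples and 779 and 404 in *Foxq1* cKO samples, so both *Foxq1* cKO samples were higher (log2 fold change 1.0, SE 0.524, adjusted p = 0.857). Its 27 bases of recognition helix differed from those of *Foxq1* at 1 base. *Foxl2*, best known from ovarian granulosa cells, had 72.5 and 3.99 in wild-type samples and 271 and 95.6 in *Foxq1* cKO samples. Here too both *Foxq1* cKO samples were higher, and the wild-type pair was wide apart (3.08, SE 1.45, adjusted p = 0.857). *Foxj1*, the regulator of motile cilia, had 135 and 205 against 307 and 302 (0.87, SE 0.569, adjusted p = 0.857).

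*Foxs1*, a gene of mural cells, had 1422 and 1902 normalized counts against 1399 and 1249 (log2 fold change −0.31, SE 0.265, adjusted p = 0.878), and *Foxj3* had 624 and 639 against 359 and 506 (−0.57, SE 0.397, adjusted p = 0.860). For both, every *Foxq1* cKO sample was below every wild-type sample, although *Foxs1* was nearly level in wild-type 1 and *Foxq1* cKO 1. *Foxm1*, which drives genes of mitosis, had 33.7 and 245 against 201 and 336 (1.5, SE 1.04, adjusted p = 0.859). Its groups overlapped, while 6 of the 8 cycling-cell markers were higher in both *Foxq1* cKO samples, as were 2239 of all 12472 genes tested, with *Mki67* (1.40, adjusted p = 0.857) and *Aurkb* (1.08, adjusted p = 0.857) past the unadjusted threshold, 2 of 8 beside 2.17% of all genes. Whether the number of cycling cells bears on *Foxm1* was not tested.

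*Foxp2*, a relative of *Foxp1* known from neurons, had 887 and 190.4 normalized counts against 480.1 and 573, beside summed neuronal markers of 6364 and 5803 against 4268 and 6086, and its log2 fold change of 0.35 turned to −0.0347 in DESeq2 and −0.0322 in edgeR. The wild-type samples of *Foxp2* enclosed both *Foxq1* cKO samples. *Foxn2* had 754 and 299 against 883 and 661 (0.68, adjusted p = 0.873), and *Foxj2* had 424 and 167 against 329.9 and 155 (−0.24, adjusted p = 0.968).

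*Foxb1*, *Foxd1* and *Foxo4* were the lowest. *Foxb1* had 58.1 and 21.9 normalized counts against 26.1 and 2.03 (log2 fold change −2.02, adjusted p = 0.858), *Foxo4* had 7.58 and 14 against 8.71 and 31.5 (0.65, adjusted p = 0.941), and *Foxd1* had 111 and 7.98 against 45.7 and 22.4. The sign for *Foxd1* depended on the setting: 0.06 in limma, −0.15 with quantile normalization, −0.0594 with a pseudocount of 5, and −0.81 in both DESeq2 and edgeR.

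Leaving out 1 wild-type sample changed the size of the change for several of these genes. Without wild-type 1, the log2 fold change was 5.02 for *Foxl2*, 1.35 for *Foxn2*, 1.46 for *Foxp2* and 0.0842 for *Foxm1*. Without wild-type 2, it was 1.14, 0.0188, −0.76 and 2.91 in the same order.

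**Figure D4:**
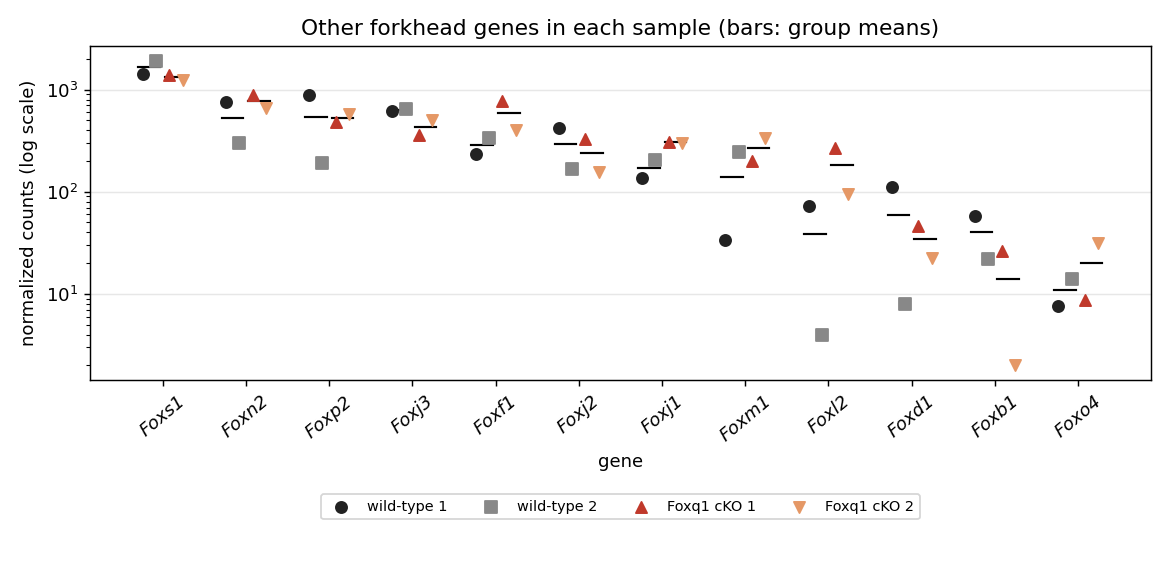
Normalized counts (log axis) of 12 of the 13 other listed forkhead genes in each sample, ordered by their mean, with a bar at each group mean. Wild-type samples lie far apart for *Foxl2* (72.5 and 3.99), *Foxd1* (111 and 7.98) and *Foxm1* (33.7 and 245).

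The genes around *Foxq1* were examined next, since its locus was cut to make the conditional allele. Of 25 annotated genes within 1 Mb, 7 were listed, in the order *Dusp22* and *Exoc2* on one side, and Gm11377, 1700018A04Rik, *Foxf2*, *Foxc1* and *Gmds* on the other. None of the 7 passed an unadjusted p of 0.05 in limma, where 5.22% of all genes did, with a median log2 fold change of 0.07. The lowest p among them belonged to the long non-coding RNA 1700018A04Rik, which lies between *Foxq1* and *Foxf2* and had 768 and 778 normalized counts in wild-type samples and 1404 and 1119 in *Foxq1* cKO samples. Both *Foxq1* cKO samples were above the closely matched wild-type pair (log2 fold change 0.70, SE 0.291, adjusted p = 0.857), and with quantile normalization the change was 0.72 and passed unadjusted. Gm11377, the non-coding gene beside it, had 68.3 and 85.7 against 172 and 67.1, with *Foxq1* cKO samples on either side of the wild-type pair (0.49, SE 0.833, adjusted p = 0.939).

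*Gmds*, which encodes an enzyme of GDP-fucose synthesis and follows *Foxc1*, had 1398 and 1353 normalized counts in wild-type samples and 1236 and 793 in *Foxq1* cKO samples (log2 fold change −0.47, SE 0.314, adjusted p = 0.857). On the other side, *Exoc2*, of the exocyst complex, had 2694 and 3029.7 against 2738 and 3287 (0.07, SE 0.200, adjusted p = 0.966), and the phosphatase gene *Dusp22* had 372 and 654 against 386 and 505 (−0.16, SE 0.468, adjusted p = 0.967). Both *Gmds* values were lower in *Foxq1* cKO samples, and the groups overlapped for *Exoc2* and *Dusp22*.

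FoxO proteins are controlled mainly after transcription, so the genes that act on them and a list of their known targets were counted as well. Of 27 upstream regulators (insulin receptor to Akt, 14-3-3 proteins, acetylases and deacetylase), all were listed, and 3 were lower and none higher at an unadjusted p under 0.05. That is 11.1%, beside 5.22% of all genes in either direction and 3.05% lower. A regulator was higher in 2 of the other fits, *Irs1* without wild-type 2 (3.87) and *Mtor* without moderation (0.52), both named after their values were seen. The list's median log2 fold change was −0.05, beside 0.01 for all genes.

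*Igf1r*, the IGF1 receptor, had 7704 and 7739 normalized counts in wild-type samples and 5980 and 4705 in *Foxq1* cKO samples (log2 fold change −0.54, SE 0.171). *Akt2*, a kinase that phosphorylates FoxO proteins, had 2055 and 2574 against 1232 and 1489 (−0.76, SE 0.248). *Insr*, the insulin receptor, had 8302 and 6836 against 5406 and 5809 (−0.43, SE 0.163). In all 3, both *Foxq1* cKO samples were below both wild-type samples, and each had an adjusted p of 0.857. The 3 were named for their p in these same samples, so the lack of overlap is no separate evidence. Over the list, the groups did not overlap for 9 of the 27 regulators (2 higher and 7 lower), or 33.3% beside 36.0% of all genes. *Insr* did not pass the unadjusted threshold without wild-type 1 (−0.29), and *Igf1r* and *Akt2* did not pass it without wild-type 2 (−0.54 and −0.60). None of the 3 passed with eBayes without a trend or without moderation. *Akt2* (−0.63) and *Insr* (−0.38) also failed without *Foxq1* cKO 1, and *Igf1r* (−0.37) and *Insr* (−0.48) without *Foxq1* cKO 2. *Insr* failed with quantile normalization too (−0.34). *Flt1* and summed endothelial markers were lower as well (above), and their part in these values was not tested.

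Of 38 known FoxO targets 35 were listed, and 4 of these (11.4%) were lower and none higher at an unadjusted p under 0.05, beside 5.22% of all genes in either direction and 3.05% lower. The list mixes genes that FoxO proteins induce with some they repress, such as *Ccnd1*, *Ccnd2* and *Nos3*, so its median log2 fold change of −0.14 has no single expected direction. That none was higher did not hold in every fit: *Ccnd2* (0.71) and *Mxi1* (1.68) were higher without wild-type 1, and *Fbxo32* (1.8) with eBayes without a trend or without moderation, all named after their values were seen. For *Mxi1* the direction turned with the wild-type sample kept: it was −1.04 without wild-type 2, and its wild-type samples differed 6.63-fold. The 4 lower targets of the reported fit were *Bnip3*, *Sesn1*, *Angpt2* and *Insr*, which is both a regulator and a target. *Bnip3*, a mitophagy receptor that hypoxia also induces, had 1781 and 1462 normalized counts against 643 and 717 (−1.25, SE 0.283), a gene the study itself picked out in these samples, so it is no independent evidence of the list's direction. *Sesn1*, a stress-induced inhibitor of mTORC1 signalling, had 4337 and 5134 against 2873 and 3143 (−0.65, SE 0.183). *Angpt2*, the angiopoietin that destabilises vessels, had 1823 and 1086 against 544 and 701 (−1.19, SE 0.369). All samples of one group lay below all of the other for these genes, each with an adjusted p of 0.857, and *Angpt2* did not pass unadjusted without wild-type 1 (−0.81) or *Foxq1* cKO 1 (−1.0), nor *Sesn1* without wild-type 2 (−0.53) or *Foxq1* cKO 1 (−0.59). *Sesn1* also failed with eBayes without a trend and *Angpt2* without moderation, while *Bnip3* passed in all 16 fits. The groups did not overlap for 15 of the 35 targets, 4 higher and 11 lower, or 42.9% beside 36.0% of all genes.

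Among 29 cofactors of forkhead proteins, all listed, *Hcfc1* was the only one past an unadjusted p of 0.05 (3.45% beside 5.22%), with a list median of −0.10. *Hcfc1*, a chromatin cofactor that works with the BAP1 deubiquitinase bound by FOXK proteins, had 864 and 1501 normalized counts in wild-type samples and 1810.4 and 2422 in *Foxq1* cKO samples (log2 fold change 0.88, SE 0.344, adjusted p = 0.857). It did not pass unadjusted without wild-type 1 (0.48), *Foxq1* cKO 1 (1.09) or *Foxq1* cKO 2 (0.67), nor with eBayes without a trend or without moderation. None of 20 other transcription factors of brain endothelium passed in limma, with a median of 0.00. *Sox7*, a SoxF factor of vessels, came closest at 8531 and 6671 against 5526 and 5871 (−0.41, adjusted p = 0.857), followed by *Foxl2*, which stands in this list too.

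**Figure D5:**
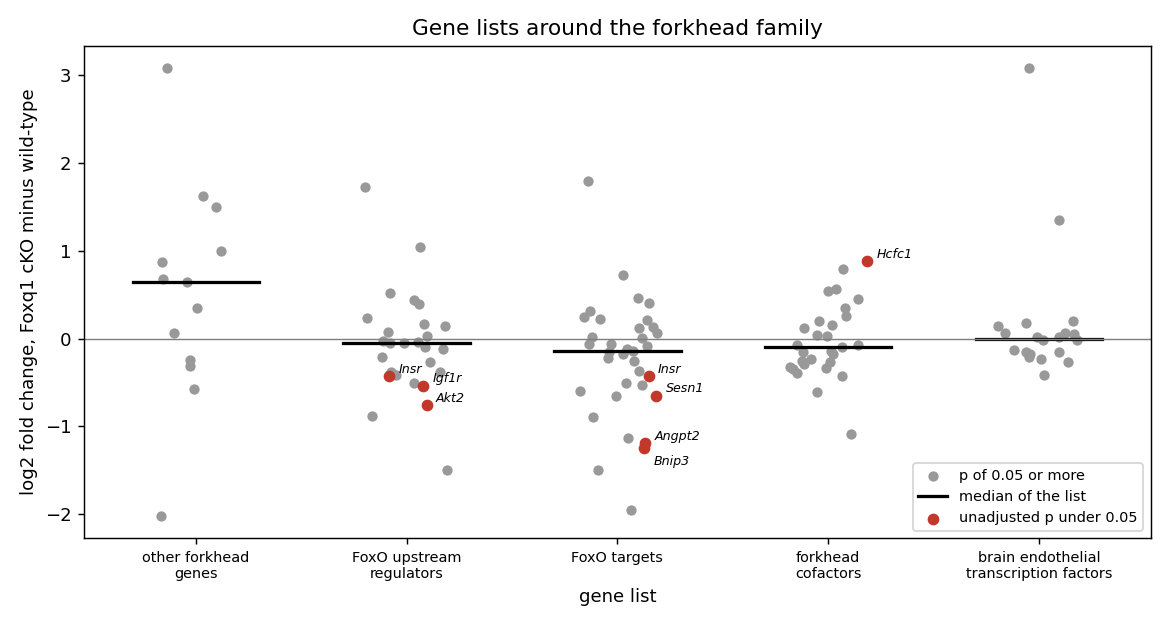
Log2 fold change (*Foxq1* cKO minus wild-type) of each tested gene in 5 lists, with genes at an unadjusted limma p under 0.05 in red and named, and the list median as a bar. Calls are 3 lower of 27 FoxO regulators (11.1%), 4 lower of 35 FoxO targets (11.4%) and 1 higher of 29 cofactors (3.45%). Of all genes tested, 3.05% were lower and 2.17% higher at that threshold, and none passed adjustment. *Insr* is counted in both FoxO lists.

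Promoter windows of 300 bases (250 before to 50 after a start, RefSeq, GRCm38.p6) were found for 8 of the 10 members, in 10 windows. The forkhead core motif GTAAACA, read on both strands, was in none of the 10 windows and in 3.65% of all 32851 windows. The shorter GTTTC, which is not contained in the first motif, was in 5 of the 10 windows, those of *Foxn3*, *Foxo1* and *Foxp1*, beside 45.0% of all windows. These counts describe letters in these windows only.

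Over the 4 samples, the genes most like *Foxq1* among 11393 with a mean of at least 50 were Gm45714 (Pearson r on log2 values 0.99989), *Scaf8* (0.9998) and 9430038I01Rik (0.99979). They did not stand alone, since 88 genes, or 0.772%, had r above 0.99 over these 4 samples. Gm45714 had 189 and 179 normalized counts in wild-type samples and 27.2 and 61.0 in *Foxq1* cKO samples, so it followed the order of *Foxq1* in every sample at a smaller size (log2 fold change −2.14, SE 0.81, adjusted p = 0.857).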

How the data were processed

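Members and gene lists were chosen with earlier results of these data known. The authors deposited 1 table of normalized signal, in which every value was a whole multiple (within 0.0001 reads) of 1 step per sample, that is, reads divided by a size factor. Per the submitters' processing notes, Bowtie2 2.2.3, TopHat2 2.0.12, HTSeq 0.6.0 and build mm9 were used. The annotation and strand setting were not given in the sources used here. The paper's text names Smart-seq2, and the labels give 2 ug of total RNA per library. Repeated lines (1207361) were reduced to 12693 symbols, each with at least 1 read per sample. limma 3.58.1 (R 4.3.3, trend, two-sided) was fitted to log2(value + 1) for the 12472 genes whose mean reached 10. The added 1 tends to pull low genes' fold changes towards 0. With 0.1 added instead of 1, *Foxp4* was at −1.4 and *Foxo4* at 0.68, close to the reported −1.37 and 0.65. Compared with DESeq2, the limma change was larger for *Foxp4* (−0.74 in DESeq2) and smaller for *Foxo4* (0.9 in DESeq2). The cause of these gaps to DESeq2 was not tested. Benjamini-Hochberg adjustment ran over all genes tested. DESeq2 1.42.0 and edgeR 4.0.16 were run on recovered reads. Scripts were tested on simulated data. Exon lengths and sequences came from GRCm38, while mm9 positions were not used. Neighbours are given by order only. Named genes were all members, all other listed forkhead genes (1 is not reported here), all listed genes within 1 Mb of *Foxq1*, and per list the 4 lowest p under 0.05 or, with none, the 2 lowest.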

Additional observations from a re-analysis of the deposited data

How the results depend on the processing

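The biological coefficient of variation was 50.1% and the median SE of a log2 fold change 0.496, and a 95% interval reaches more than 2 SE to each side. Intervals cover these samples only, and genes with 0 reads in a sample are not listed. The 11 other settings with all 4 samples gave the following changes. DESeq2 gave 59 genes at an adjusted p under 0.05. It called 4 of 29 cofactors and 1 of 20 brain endothelial factors at an unadjusted p under 0.05, beside 6.45% of all genes. Testing each gene without moderation gave 0 members (*Foxq1* at the same −4.47), 1 FoxO regulator (*Mtor*, higher) and 2 cofactors (*Hdac5* and *Kdm1b*, lower), while *Igf1r*, *Akt2*, *Insr*, *Angpt2* and *Hcfc1* lost their calls. eBayes without a trend gave 1 regulator (*Irs2*, lower), 0 cofactors and 1 brain endothelial factor (*Tal1*, higher), while *Igf1r*, *Akt2*, *Insr*, *Sesn1* and *Hcfc1* lost theirs and *Fbxo32* (1.8) was called higher. Those newly called were named after their values were seen. Quantile normalization lost *Insr* (−0.34) and gave 1 neighbour of *Foxq1*. *Foxd1* turned to −0.0594 (pseudocount 5), −0.15 (quantile), −0.81 (DESeq2) and −0.81 (edgeR), and *Foxp2* to −0.0347 (DESeq2) and −0.0322 (edgeR). All other members kept their direction and side of the threshold there. The cause of these shifts was not tested. Same-numbered samples did not deviate together (r = 0.0325). With 2 samples a group, this single value cannot show whether they shared a litter or preparation, which was not tested. With the replicate number as a block, 1 of 13 other forkhead genes (*Foxl2*) and 7 of 35 FoxO targets were past an unadjusted p of 0.05. So were 2 of 29 cofactors, 1 of 20 brain endothelial factors and 693 of all 12472 genes tested. *Foxq1* kept its value of −4.47 and its call. The count over all genes was 695 without moderation, 675 with eBayes without a trend and 646 with quantile normalization.

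With 1 sample left out, limma assumes that the lone sample varies like the other group. Calls over all genes then ran from 276 (without *Foxq1* cKO 1) to 1569 (without wild-type 2), with 826 without wild-type 1. Other forkhead genes ran from 0 to 3, FoxO regulators from 1 to 3, FoxO targets from 1 to 7, cofactors from 0 to 5 and brain endothelial factors from 0 to 2. Signs changed for *Foxc1* (−0.29 to 0.43), *Foxo1* (−0.83 to 1.18), *Foxp1* (−0.24 to 0.32), *Foxp4* (−2.88 to 0.13), *Foxk1* (−0.84 to 0.0971), *Foxk2* (−0.46 to 0.68), *Foxn3* (−0.17 to 0.25), *Foxo4* (−0.22 to 1.52), *Foxp2* (−0.76 to 1.46), *Foxj2* (−0.90 to 0.43), *Foxd1* (−1.76 to 1.88), Gm11377 (−0.19 to 1.16), *Exoc2* (−0.0613 to 0.20) and *Dusp22* (−0.57 to 0.25).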
